A study of Mus musculus with 26 samples.

Results

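Transcripts of 44 listed genes for tRNA synthetases and amino acid synthesis were followed in dorsal root ganglia (DRG) of mice, which hold the cell bodies of sensory neurons next to the spinal cord. The genes were taken by symbol from a list made by function, with earlier results of these data known. They comprise 20 cytosolic synthetases, 16 mitochondrial synthetases and 8 genes of asparagine, serine, glycine, one-carbon and proline synthesis. All 44 were found among the 55401 genes of the count tables, and all 44 passed the filter on low counts in every comparison.

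A tRNA synthetase joins 1 kind of amino acid to its tRNA and thereby supplies the ribosome. Most cytosolic and mitochondrial enzymes of the same amino acid are encoded by separate nuclear genes, while Gars (glycine) and Kars (lysine) each encode both forms. Many cytosolic synthetase genes and several genes of serine, asparagine and proline synthesis are known targets of ATF4, the transcription factor whose translation increases in the integrated stress response and on amino acid shortage. Injured sensory neurons are known to change their transcription and to increase protein synthesis when they regrow axons.

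The study asked what loss of the aryl hydrocarbon receptor gene Ahr in neurons does in naive ganglia, after injury of the sciatic nerve, and in culture. Conditional knockout (cKO) mice were labelled Ahr f/f with the transgene Thy1-CRE(ERT2/EYFP), a tamoxifen-inducible Cre under the Thy1 promoter, which is active in neurons. Control mice carried 1 or 2 floxed Ahr alleles without Cre: naive control replicates 1 and 2, injured control replicates 1 and 2 and sham control replicate 1 had 1 floxed allele, and the other controls had 2. All naive and injured mice, controls included, were given intraperitoneal tamoxifen when 28 weeks old (100 mg/kg on each of 5 days), and ganglia were taken 5 weeks later from naive mice or 1 day after a sciatic nerve crush performed then. Each of these 4 groups held 3 mice, with 1 library per mouse. A separate set of libraries held ganglia of the operated (ipsilateral) and opposite (contralateral) side 1 day after sham surgery, with 2 mice per genotype that gave both sides, and semi-purified DRG neurons cultured for 24 hours, with 3 libraries per genotype. The labels state no tamoxifen for this second set. Naive and cultured samples were labelled female, sham samples male, and injured groups 2 females and 1 male each.

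Total counts were 20169388 to 23540375 per library in naive and injured ganglia, 39306414 to 58751270 in sham ganglia and 25299938 to 88180611 in neurons. Ahr itself did not check the genotype labels: its log2 fold change in cKO against control was 0.17 in naive ganglia, 0.07 in injured ganglia and -0.05 in neurons, with adjusted p from 0.754 to 1. A count per gene does not separate the floxed exon from the others, and ganglia hold cells without the Cre. Thy1, whose promoter drives the transgene, was higher in cKO naive ganglia by 0.86 on the log2 scale (adjusted p = 0.00191) and in cKO injured ganglia by 0.79 (adjusted p = 0.00521). It was not called in neurons (1.01, adjusted p = 0.298), ipsilateral (0.51, adjusted p = 0.498) or contralateral sham ganglia (0.71, adjusted p = 0.105), whose genotype labels thus stayed unchecked by a call. Transcripts of the sex chromosomes went against the labelled sex in 2 of 26 libraries: injured control replicate 3 was female by its transcripts, which makes all injured controls female, and injured cKO replicate 2 was male, which leaves replicate 1 as the only female of its group. Neuron markers, glial markers and blood markers were present in every ganglion library. Expression is given as CPM (read counts scaled to the library size) with 1 set of normalization factors over all 26 libraries. A gene is called higher or lower where the adjusted p of the edgeR quasi-likelihood test over all genes tested was under 0.05, two-sided. Counts covered the whole gene span, introns included. Reads shared with neighbouring genes were estimated on the assumption that a read in a shared stretch was counted for both, whatever its strand. For 7 members the shared stretch was estimated to give over 20% of the count: Farsb (shared with Sgpp2), Cars2 (Naxd), Fars2 (Nrn1), Hars2 (Hars), Iars2 (Rab3gap2), Vars2 (Gm20483) and Psph (Cct6a), and their values are uncertain for that reason. All 7 neighbours lie on the opposite strand, and whether the counts kept the strands apart was not tested.

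In naive control ganglia the levels of the 44 genes spread widely. Per kilobase of exon, Nars (asparagine) had the highest level of the cytosolic synthetases, at 55.0 CPM per kb, followed by Farsb at 46.8, Gars at 37.9 and Wars (tryptophan) at 36.0, while Cars (cysteine) had the lowest at 1.60. Among mitochondrial synthetases Lars2 (leucine) at 29.7 and Fars2 (phenylalanine) at 29.1 CPM per kb stood above the other 14, which lay between 0.806 in Cars2 and 8.38 in Iars2. Of the amino acid synthesis genes, Asns (asparagine synthetase) was highest at 34.2 CPM per kb and Pycr1, which makes proline in its last step, was lowest at 0.792. The levels of Farsb, Fars2, Iars2 and Cars2 may include reads of the neighbours named above. Counts cover the whole span, and per kilobase of span the order differed for some: Nars (14.1), Lars2 (3.43) and Asns (5.18) stayed highest of their classes and Cars (0.246) and Pycr1 (0.387) lowest, while Fars2 (0.275) took place 12 of 16 and Farsb (1.73) place 10 of 20.

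One day after sciatic crush, control ganglia held more transcript of 12 of 20 cytosolic synthetases and of 5 of 8 amino acid synthesis genes, while few mitochondrial synthetases were called. Of the 20 cytosolic synthetases 12 rose, 1 fell and 7 were not called, of the 16 mitochondrial synthetases 1 rose, 1 fell and 14 were not called, and of the 8 amino acid synthesis genes 5 rose and 3 were not called. Among all 21261 genes tested in the same comparison, 12.9% were called higher and 8.73% lower. The cytosolic count was 8 with upper-quartile factors and 8 with library totals, where 0 mitochondrial synthetases rose and 2 fell by edgeR, the amino acid synthesis count stayed 5, and the calls over all genes went from 2744 higher and 1857 lower to 2175 and 2597 and to 2060 and 2968. Without single libraries the cytosolic count was as low as 5. The median log2 fold change was 0.24 for the cytosolic synthetases, -0.10 for the mitochondrial ones and 0.32 for the amino acid synthesis genes, against -0.02 for all genes tested. Without the 7 members estimated to share over 20% of their count, 18 of the remaining 37 rose and 0 fell by edgeR in the control comparison.

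**Figure D1:**
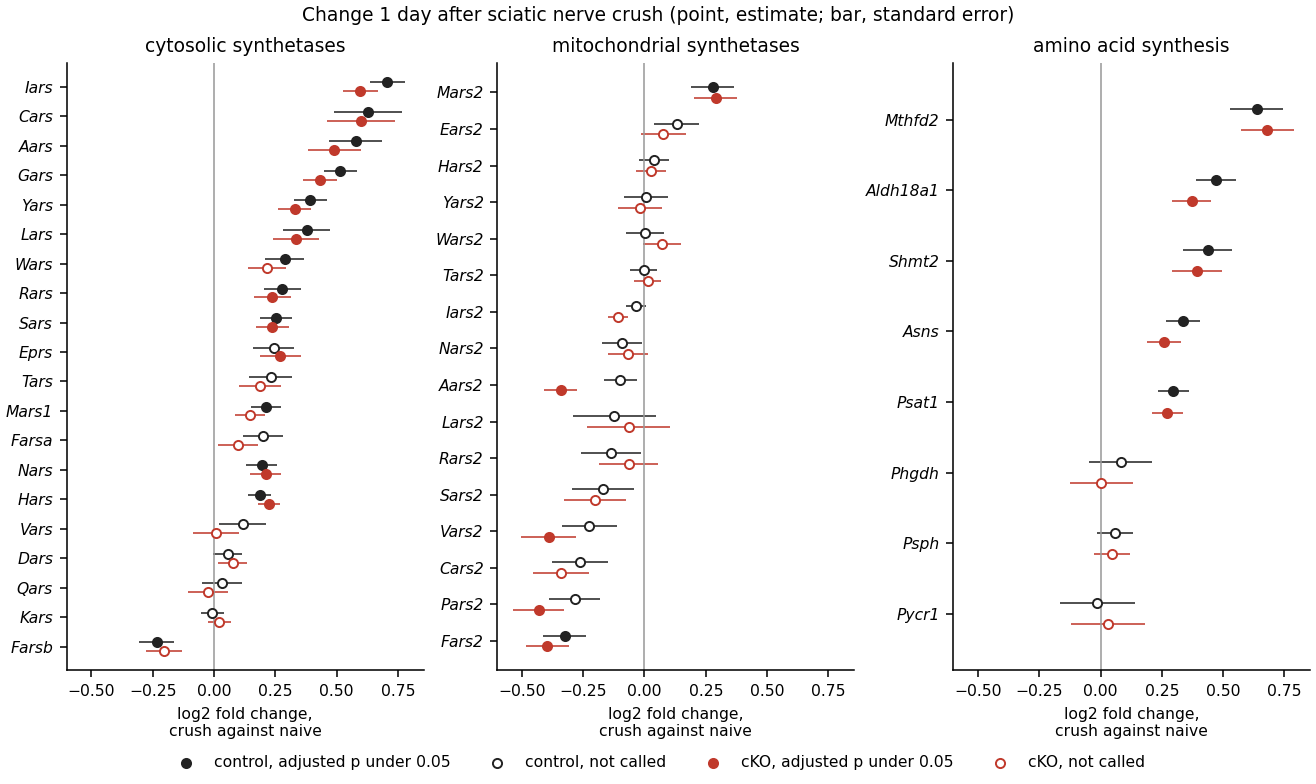
Log2 fold change after crush against naive ganglia for each of the 44 genes, by class, in control and in cKO mice (3 mice per group); bars are the standard error of the fitted log2 fold change and filled points are genes with an adjusted p under 0.05. Most cytosolic synthetases lie to the right of 0 in both genotypes, with Iars farthest at 0.71 in control, while 11 of the 16 mitochondrial synthetases lie to the left in control.

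Iars, the isoleucine enzyme (ENSMUSG00000037851.13, chr13:49682100-49734267, plus strand of GRCm38), rose most among the cytosolic synthetases. Its level was 54.5, 65.2 and 60.9 CPM in the 3 naive control ganglia and 96.4, 104 and 93.8 CPM in the 3 injured ones, with means of 60.2 ± 5.38 and 98.2 ± 5.58 CPM (SD, n = 3 each). The groups did not overlap, as was so for 38.4% of all genes, and the log2 fold change was 0.71 (SE 0.072, edgeR adjusted p = 4.13e-05). Cars (ENSMUSG00000010755.17, chr7:143557230-143600090, minus strand), the cysteine enzyme, was at 11.6, 10.5 and 9.50 CPM in naive controls and at 16.6, 17.6 and 14.6 CPM in injured controls. This lowest-expressed cytosolic synthetase thus also had separate groups, with a log2 fold change of 0.63 (SE 0.139, adjusted p = 0.00685).

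Aars, the alanine enzyme (ENSMUSG00000031960.14, chr8:111033144-111057664, plus strand), was at 101, 111 and 102 CPM in naive controls and at 143, 176 and 149.5 CPM in injured controls. All 3 injured ganglia lay above all 3 naive ones, and the log2 fold change was 0.58 (SE 0.108, adjusted p = 0.00257). Gars, the glycine enzyme (ENSMUSG00000029777.10, chr6:55038007-55079500, plus strand), went from 115, 124 and 115 CPM to 167, 180.4 and 159 CPM, a log2 fold change of 0.52 (SE 0.069, adjusted p = 0.000277). Yars, the tyrosine enzyme (ENSMUSG00000028811.12, chr4:129189760-129219607, plus strand), went from 70.4, 78.2 and 75.2 CPM to 98.0, 101 and 95.0 CPM, with a log2 fold change of 0.39 (SE 0.067, adjusted p = 0.0014). Neither gene had overlapping groups.

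The other 7 cytosolic synthetases that rose in control were Lars, Wars, Rars, Sars, Mars1, Nars and Hars, the enzymes for leucine, tryptophan, arginine, serine, methionine, asparagine and histidine, with log2 fold changes from 0.38 in Lars to 0.19 in Nars and Hars. Nars lost its call in 16 of 22 alternatives, Mars1 in 9, Rars in 6 and Hars in 5. Mars1 shares an estimated 4.26% of its count with Ddit3, a stress gene beside it. Those not called were Eprs (log2 fold change 0.24, adjusted p = 0.0576), which carries both the glutamate and the proline activity, Tars (0.23, adjusted p = 0.0783), Farsa, Vars, Dars, Qars and Kars. Kars stood nearest to 0: it was at 51.6, 51.5 and 48.4 CPM in naive controls and at 48.9, 51.0 and 50.7 CPM in injured controls (log2 fold change -0.01, adjusted p = 0.942). The groups of Kars overlapped fully.

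Farsb was called against the direction of its class. It encodes the beta subunit of the cytosolic phenylalanine enzyme, whose alpha subunit is Farsa. Farsb (ENSMUSG00000026245.16, chr1:78417975-78488897, minus strand) was at 112, 136 and 120.1 CPM in naive controls and at 99.0, 102 and 112 CPM in injured controls, a log2 fold change of -0.23 (SE 0.072, adjusted p = 0.0369). The estimated share of its count that also belongs to Sgpp2 was 62.05%, so the fall cannot be assigned to Farsb alone, and the call was lost in 7 of 22 alternatives. Farsa had a log2 fold change of 0.20 (adjusted p = 0.103).

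Among mitochondrial synthetases, Mars2 (methionine) rose and Fars2 (phenylalanine) fell in control. Mars2 (ENSMUSG00000046994.9, chr1:55237177-55248470, plus strand) was at 19.6, 23.0 and 21.7 CPM in naive controls and at 25.9, 28.1 and 24.0 CPM in injured controls, with a log2 fold change of 0.28 (SE 0.087, adjusted p = 0.0401). This call was lost in 13 of 22 alternatives. Fars2 (ENSMUSG00000021420.13, chr13:36117412-36726280, plus strand) was at 170.0, 171 and 161 CPM and then at 137, 125 and 137 CPM, a log2 fold change of -0.33 (SE 0.087, adjusted p = 0.0188). Its groups were separate, but Nrn1 overlaps the long Fars2 span with 40.9% of its exon bases, on the opposite strand. Reads shared with all overlapping genes were estimated at 108.66% of the Fars2 count. More than the whole count cannot be shared, so this estimate is too high and the true share is not known. Of the 16 mitochondrial synthetases 11 had a negative log2 fold change.

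The 5 amino acid synthesis genes that rose had separate groups in control, as 38.4% of all genes did. Mthfd2, a mitochondrial enzyme of one-carbon metabolism (ENSMUSG00000005667.8, chr6:83305691-83325908, minus strand), was at 26.1, 29.9 and 27.4 CPM in naive controls and at 42.2, 47.1 and 40.1 CPM in injured controls. Its log2 fold change of 0.64 (SE 0.108, adjusted p = 0.00138) was the largest of the 8 genes. Aldh18a1, which makes the precursor of proline (ENSMUSG00000025007.13, chr19:40550257-40588463, minus strand), went from 22.5, 24.9 and 22.8 CPM to 31.4, 33.8 and 31.9 CPM, a log2 fold change of 0.47 (SE 0.080, adjusted p = 0.00138). Asns (ENSMUSG00000029752.12, chr6:7675169-7693254, minus strand) went from 90.8, 101 and 89.0 CPM to 117, 125 and 112 CPM, a log2 fold change of 0.34 (SE 0.070, adjusted p = 0.00485).

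Of the serine and glycine genes, Psat1, the aminotransferase of serine synthesis (ENSMUSG00000024640.9, chr19:15904678-15947337, minus strand), went from 56.1, 60.7 and 58.1 CPM to 73.9, 73.1 and 67.7 CPM. Its log2 fold change was 0.30 (SE 0.063, adjusted p = 0.0053). Shmt2, which turns serine into glycine in mitochondria (ENSMUSG00000025403.5, chr10:127517123-127522444, minus strand), went from 16.2, 18.0 and 17.2 CPM to 22.4, 25.7 and 21.4 CPM, a log2 fold change of 0.44 (SE 0.101, adjusted p = 0.0091). The enzymes before and after Psat1 in the same short pathway were not called: Phgdh, which takes the first step, was at 14.8, 13.7 and 15.5 CPM and then at 16.1, 15.1 and 15.4 CPM (log2 fold change 0.08, adjusted p = 0.701), and Psph, which takes the last, had a log2 fold change of 0.06. Likewise Aldh18a1 rose while Pycr1, which finishes proline synthesis, had a log2 fold change of -0.01 (adjusted p = 0.964).

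**Figure D2:**
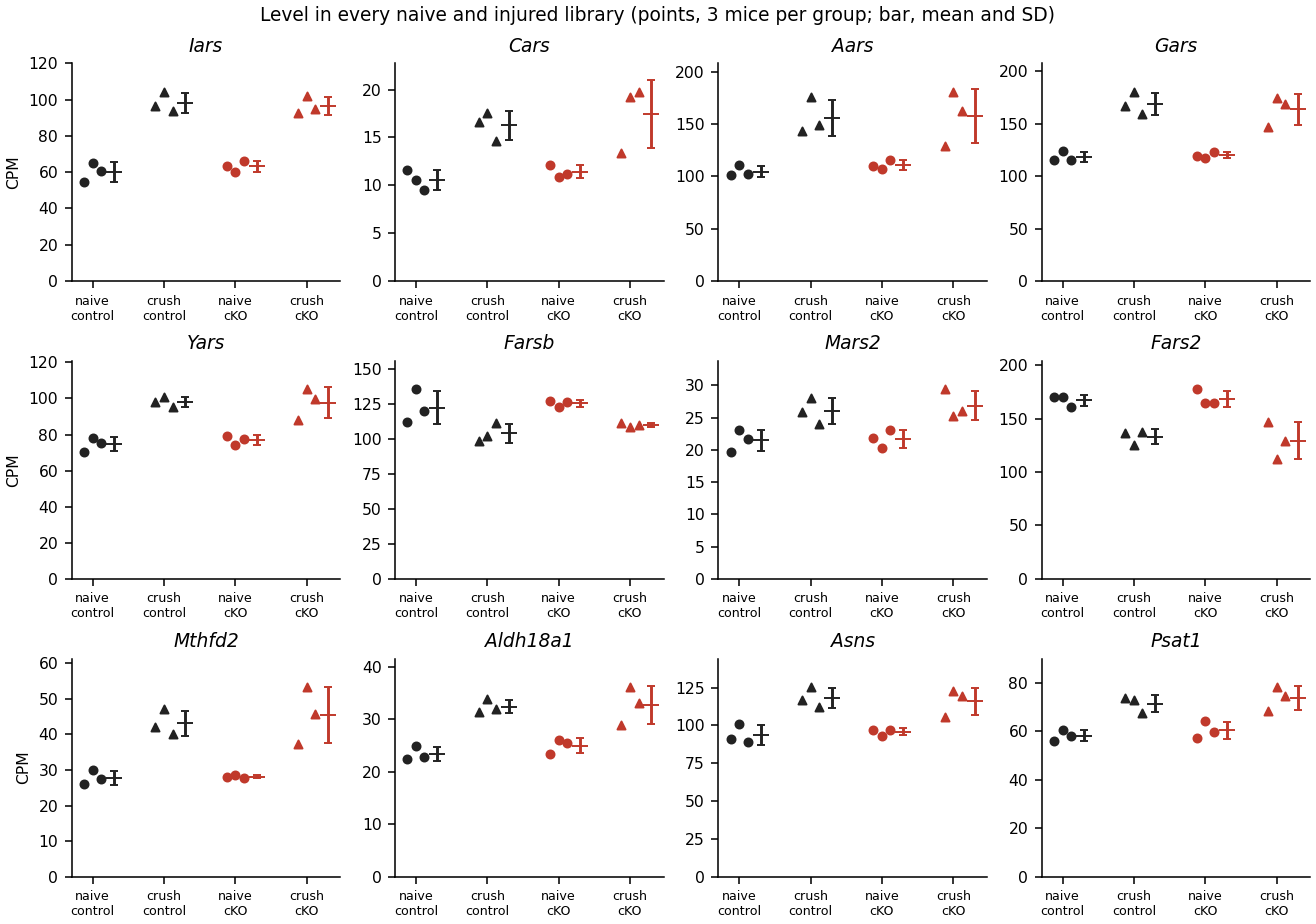
Normalized expression (CPM, linear axis from 0) of 12 of the genes in each library of naive and crushed-nerve ganglia, control and cKO; points are mice, horizontal lines group means and bars SD (n = 3 per group). For Iars the 3 injured controls lie between 93.8 and 104 CPM, above all naive controls.

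The promoters of the 44 genes were searched for TGATGNAA, the core of the response element bound by C/EBP and ATF factors, on either strand in the 250 bases before the start of RefSeq transcripts (GRCm38.p6). A promoter was available for 35 members. The letters were found for 3 of 13 cytosolic synthetases (Aars, Gars and Tars), 0 of 14 mitochondrial synthetases and 2 of 8 amino acid synthesis genes (Asns and Pycr1), and in 3.91% of all 27025 genes with such a promoter. The 5 matches are printed 5′ to 3′ on the strand of the gene with 24 bases before each and the match in capitals, which for Aars, Gars and Tars reads as the complement, to show what the promoters of genes that rose (Aars, Gars, Asns) and of genes not called (Tars, Pycr1) hold.
Aars, chr8:111033706-111033761, 104 bases before the start: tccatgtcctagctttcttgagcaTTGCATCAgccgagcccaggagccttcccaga
Gars, chr6:55037947-55038000, 22 bases before the start: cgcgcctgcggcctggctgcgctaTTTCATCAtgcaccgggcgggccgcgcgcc
Tars, chr15:11399659-11399697, 7 bases before the start: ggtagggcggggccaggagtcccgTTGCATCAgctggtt
Asns, chr6:7693210-7693256, 15 bases before the start: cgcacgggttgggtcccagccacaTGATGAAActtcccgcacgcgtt
Pycr1, chr11:120643820-120643875, 95 bases before the start: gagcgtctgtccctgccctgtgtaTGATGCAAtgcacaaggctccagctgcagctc
Each match is a string in the reference genome and not evidence of binding. Members with the letters occur among both called and uncalled genes, and Iars, Yars, Mthfd2 and Aldh18a1 rose with no match in this window.

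Related genes were counted from 4 lists on the same comparison, in which 12.9% of all genes were called higher. Of 20 genes of ATF4 and the integrated stress response, 13 rose and 0 fell by edgeR in control ganglia, with a median log2 fold change of 0.55. Atf4 itself rose by 0.65 (SE 0.071, adjusted p = 6.97e-05), and the smallest p-values belonged to the factor Atf3 (log2 fold change 5.64, adjusted p = 3.47e-08), the glutathione-degrading enzyme Chac1 (2.07, adjusted p = 1.11e-05) and Trib3 (1.36, adjusted p = 2.97e-05), a pseudokinase induced under stress. Of 12 amino acid transporters 7 rose, with a median of 0.41, among them Slc1a4 (1.01), Slc38a1 (0.85) and Slc3a2 (0.57). Of 15 other amino acid and one-carbon genes 2 rose, a share near that of all genes: Glul, glutamine synthetase (0.58, adjusted p = 0.000428), and Got1, an aspartate aminotransferase (0.33, adjusted p = 0.00905). Of 9 further synthetase and aminoacylation genes 7 had a negative log2 fold change in control, with a median of -0.14, and 5 in cKO, with a median of -0.07, while 11233 of all 21261 genes were negative in control.

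In cKO ganglia, of the 20 cytosolic synthetases 11 rose and 0 fell, of the 16 mitochondrial ones 1 rose and 4 fell, and of the 8 amino acid synthesis genes 5 rose, while 10.7% of all genes tested were called higher and 7.89% lower. The medians were 0.22, -0.07 and 0.27. Injured cKO replicates 2 and 3 were the only males by transcripts in this fit. With sex as a covariate the injured cKO estimate thus rested on replicate 1 alone. The medians were then 0.10, -0.09 and 0.14, and most calls of members and of all genes were lost. In both genotypes, 10 cytosolic synthetases, Mars2 and 5 amino acid synthesis genes rose and Fars2 fell. Among these cKO calls, Rars was lost in 16, Nars in 15, Mars2 in 14 and Sars in 8 of 22 alternatives. Asns was lost in 7, Lars and Shmt2 in 6 each and Psat1 in 4. Of the calls in cKO only, Eprs was lost in 12 and Vars2 in 8. Another 7 members were called in 1 genotype only (Farsb, Mars1 and Wars in control, Eprs, Aars2, Pars2 and Vars2 in cKO), and 0 were called in opposite directions.

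Iars levels in naive cKO mice were 63.2, 60.3 and 66.2 CPM, against 92.9, 102 and 94.9 CPM in injured cKO mice, a log2 fold change of 0.60 (SE 0.072, adjusted p = 0.000165). Mthfd2 was at 28.0, 28.6 and 27.7 CPM and then at 37.4, 53.3 and 45.8 CPM, a log2 fold change of 0.68 (SE 0.108, adjusted p = 0.000988). Aars was at 109.8, 107 and 116 CPM and then at 129.6, 181 and 162 CPM, with a log2 fold change of 0.49 (SE 0.108, adjusted p = 0.0075). The groups of these 3 genes did not overlap, as was so for 36.3% of all genes. Cars had 12.2, 10.9 and 11.2 CPM in naive cKO mice and 13.4, 19.3 and 19.8 CPM in injured ones (0.60, SE 0.138, adjusted p = 0.0093). Gars had 119, 117 and 123 CPM and then 147, 174 and 169 CPM (0.43, SE 0.069, adjusted p = 0.00102), again with separate groups for both. In each of these 5 genes injured cKO replicate 1 was lower than both other injured cKO ganglia, as it was for Yars, Aldh18a1, Asns, Psat1 and Shmt2. Replicate 1 is the only injured cKO library that is female by its transcripts, as all naive cKO libraries are.

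The mitochondrial synthetases called lower in cKO were Fars2 (log2 fold change -0.40, adjusted p = 0.00734), Aars2, Pars2 and Vars2. Aars2, the alanine enzyme, had 18.2, 17.5 and 17.3 CPM in naive cKO mice and 13.6, 14.4 and 14.2 CPM in injured ones, a log2 fold change of -0.34 (SE 0.068, adjusted p = 0.00407). Pars2, the proline enzyme, was at 10.6, 9.56 and 8.88 CPM and then at 7.58, 6.95 and 7.19 CPM (-0.43, SE 0.103, adjusted p = 0.0114). Vars2, the valine enzyme, had a log2 fold change of -0.39 (adjusted p = 0.0302) and may share reads with a neighbour. With sex by transcripts as a covariate, which leaves 1 injured cKO library to carry the estimate, Aars2 was at -0.39. Fars2 was then at -0.21, Pars2 at -0.36 and Vars2 at -0.47, and these last lost their calls. In control, Aars2, Pars2 and Vars2 had log2 fold changes of -0.10, -0.29 and -0.23, and none of the 3 was called.

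The difference between the genotypes in the response to crush was tested as an interaction. By edgeR and by DESeq2 0 members were called, and 0% of all genes in either direction, with 1 member at an unadjusted p under 0.05, where 2.95% of all genes were. That member was Aars2, with an interaction of -0.24 on the log2 scale (SE 0.096, adjusted p = 1), so the calls made in 1 genotype only were not shown to differ between the genotypes. The median interaction was -0.04 for the cytosolic synthetases and -0.03 for the amino acid synthesis genes. With sex by transcripts as a covariate the medians were -0.15 with 19 of 20 negative and -0.21 with 8 of 8 negative. In that fit 10729 of all 21261 genes were negative. Its only males were injured cKO replicates 2 and 3, so these values rest on injured cKO replicate 1 alone. They were not tested apart from that mouse.

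**Figure D3:**
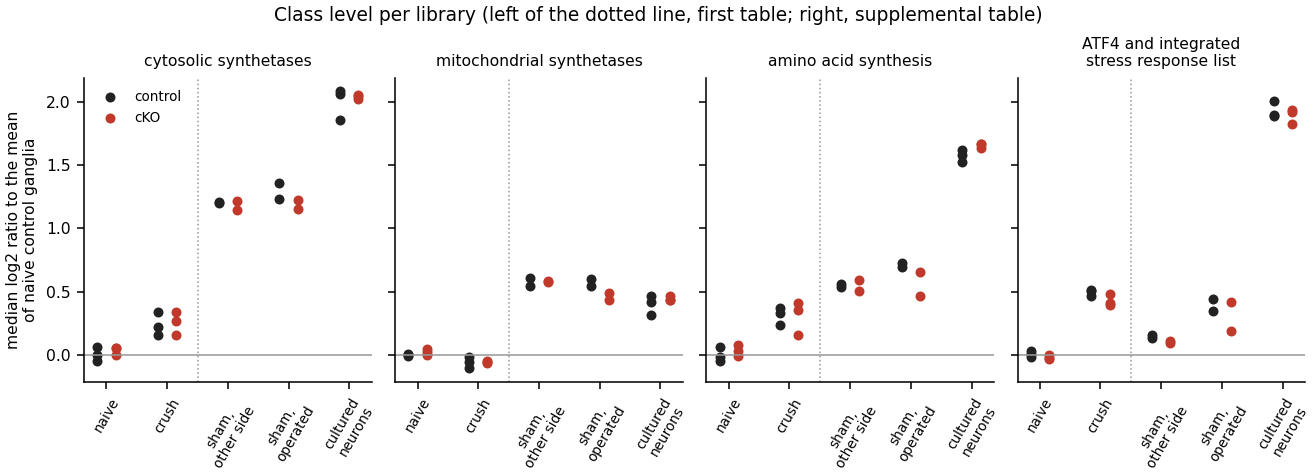
Median over the genes of each class, and over the ATF4 and stress response list, of the log2 ratio of each library to the mean of the naive controls; each point is a library, by setting and genotype. Cytosolic synthetases lie from -0.05 to 0.06 in naive controls, from 0.16 to 0.33 in injured controls and from 0.16 to 0.34 in injured cKO ganglia, below all sham and neuron libraries, which come from the other count table.

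The counts of cytosolic synthetases that rose depended on the libraries. In control they dropped from 12 to 5 without naive control replicate 3 and to 5 without injured control replicate 2, while the count of amino acid synthesis genes was 5 without each library in turn. In cKO the 11 dropped to 6 without any of naive cKO replicates 2 or 3 or injured cKO replicates 2 or 3, and to 7 without naive cKO replicate 1; the 5 amino acid synthesis genes dropped to 2 without naive cKO replicate 1 or injured cKO replicate 2 and to 3 without naive cKO replicate 3 or injured cKO replicate 3. With sex by transcripts as a covariate, the injured cKO estimate rested on replicate 1 alone, as said above. The class medians in cKO were then 0.10 and 0.14, with Iars at 0.54, and most cKO calls were lost. All naive and injured controls were female by transcripts. The covariate thus left the control medians at 0.24 and 0.32 and could not test the control calls, so it does not set the genotypes apart. Without both injured libraries whose sex went against the label, 4 cytosolic synthetases and 1 amino acid synthesis gene were called in cKO. These counts from fewer libraries were not set against the calls over all genes, so a loss particular to these classes was not shown. Marker sums of the ganglia were 5464 to 5952 CPM for 7 neuron markers in injured controls against 5516 to 6569 CPM in naive controls, and 71.1 to 188 CPM for 3 blood markers in injured cKO ganglia against 165 to 264 CPM in naive cKO ganglia. In these bulk samples fewer cells of a type and less RNA per cell cannot be told apart, and the part of cell makeup in the differences was not tested.

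Between cKO and control, 0 of the 44 genes were called by edgeR or by DESeq2 in naive ganglia, injured ganglia, neurons or sham ganglia of either side. At an unadjusted p under 0.05 there were 0 members in naive ganglia (5.79% of all genes), 0 in injured ganglia (2.72%), 1 in neurons (8%), 2 in ipsilateral (7.59%) and 2 in contralateral sham ganglia (5.23%). Few genes were called at all: 0.0047% of genes in each direction in naive ganglia and again in injured ganglia, 0% in neurons, 0% higher and 0.00451% lower in ipsilateral ganglia, and 0% in contralateral ganglia. The log2 fold changes of the 44 genes ran from -0.05 to 0.16 in naive ganglia, from -0.16 to 0.19 in injured ganglia, from -0.21 to 0.29 in neurons, from -0.24 to 0.04 in ipsilateral and from -0.35 to 0.24 in contralateral ganglia.

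**Figure D4:**
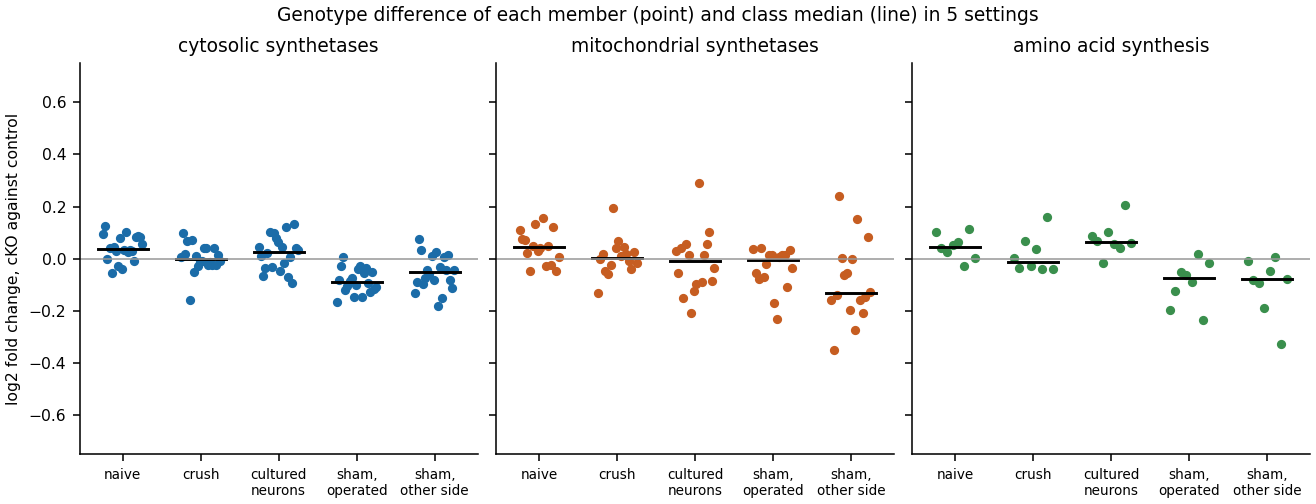
Log2 fold change of cKO against control for each of the 44 genes in 5 settings, by class, with the class medians as lines; 3 samples per group in naive ganglia, injured ganglia and neurons, and 2 in sham ganglia. None of the points has an adjusted p under 0.05, and the widest range, from -0.35 to 0.24, is that of contralateral sham ganglia.

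The members with the smallest p in each setting were as follows. Mars1 had 20.7, 18.2 and 18.5 CPM in naive controls and 19.9, 21.2 and 20.2 CPM in naive cKO mice (log2 fold change 0.10, SE 0.061, adjusted p = 0.754), with overlapping groups. In injured ganglia it was Farsa, at 16.2, 17.2 and 15.6 CPM in control and at 13.7, 15.9 and 14.5 CPM in cKO (-0.16, SE 0.082, adjusted p = 1), again with overlap. Pars2 in neurons was at 3.33, 4.12 and 3.86 CPM in control and at 4.75, 4.57 and 4.64 CPM in cKO (0.29, SE 0.121, adjusted p = 0.608), without overlap.

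In ipsilateral sham ganglia Nars was at 500.0 and 488 CPM in control and at 431 and 440.3 CPM in cKO (-0.15, SE 0.056, adjusted p = 0.602). In contralateral ganglia Cars2 was at 15.8 and 17.1 CPM in control and at 13.7 and 12.2 CPM in cKO (-0.35, SE 0.107, adjusted p = 0.88). Neither pair of groups overlapped. Over the 44 genes, 23 had both ipsilateral cKO ganglia below both controls, where 22.3% of all genes did, and in contralateral ganglia 19 lay below (18.2% of all genes) and 3 above (20.1% of all genes). The same 2 mice per genotype gave both sides, so the sides are not independent. Summed neuron markers were at 7413 to 7528 CPM in ipsilateral cKO against 8160 to 8226 CPM in control ganglia and satellite glia markers at 303 to 309 against 331 to 363 CPM, and in contralateral ganglia at 8478 to 8621 against 7905 to 8253 CPM and at 301 to 304 against 315 to 351 CPM. Macrophage markers were at 127 to 149 CPM in ipsilateral cKO against 114 to 125 CPM in control and at 120.3 to 123 against 126 to 135 CPM on the contralateral side, where endothelial markers were at 53.4 to 66.1 against 69.7 to 91.7 CPM. None of these ranges overlapped, while those of Schwann cell, fibroblast and blood markers did on both sides and those of endothelial markers did ipsilaterally. With 2 mice per group, 35.8% of all genes had no overlap in ipsilateral and 38.3% in contralateral ganglia. Satellite glia and blood markers also separated the genotypes in injured ganglia, and Schwann cell and blood markers did so in neurons. The part of the markers in these values was not tested. In naive ganglia 2 members had all cKO ganglia above all controls (5.79% of all genes), in neurons 4 (7.07% of all genes), and in injured ganglia 0 lay above (4.71% of all genes) and 0 below (4.02% of all genes). The median log2 fold change of the 44 genes was -0.07 in ipsilateral and -0.07 in contralateral ganglia, 0.04 in naive ganglia, 0.00 in injured ganglia and 0.03 in neurons. In injured ganglia 22 members were negative. With sex by transcripts as a covariate, this comparison rests on injured cKO replicate 1 alone, as both other injured cKO ganglia are the only males of the fit. The median was then -0.07 with 35 of 44 negative (19 of 20 cytosolic synthetases and 8 of 8 amino acid synthesis genes). Over all genes 11058 of 21261 were negative there.

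The operated side of sham mice was compared with the opposite side over both genotypes. By edgeR and by DESeq2 0 members were called, against 0.00451% of all genes called higher and 0% lower, and 3 members had an unadjusted p under 0.05, where 7.56% of all genes did. That fit has no term for the mouse, although both sides came from the same 4 mice. With the mouse as a block 0 members were again called by edgeR, against 4 of 22160 genes, and 3 members (6.82%) had an unadjusted p under 0.05, where 9.4% of all genes did. Within the mice, 2 members (Mthfd2 and Shmt2) were higher on the ipsilateral side in all 4 (7.37% of all genes) and 6 were lower in all 4 (10.2% of all genes): Farsb, Iars2, Lars2, Nars2, Rars2 and Vars2. Without the block, Mthfd2 had the smallest p: it was at 43.7 and 44.1 CPM on the ipsilateral and 35.4 and 41.5 CPM on the contralateral side in control, and at 37.4 and 45.4 CPM against 35.1 and 37.0 CPM in cKO (difference of 0.22 on the log2 scale, SE 0.078, adjusted p = 0.583). The sides did not overlap within either genotype, and they overlapped when both genotypes were pooled. No crushed nerve is among these libraries, so the sham and crush results were not compared within a table.

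Cultured control neurons were set against 2 kinds of control ganglia. Against contralateral sham ganglia of the same count table, 16 of 20 cytosolic synthetases were called higher and 2 lower (Farsb and Hars), 2 of 16 mitochondrial synthetases higher (Mars2 and Yars2) and 10 lower, and 7 of 8 amino acid synthesis genes higher. Among all genes tested 33.1% were called higher and 35.6% lower. The class medians of the log2 fold change were 0.61, -0.48 and 0.86. The neurons were labelled female, and the ganglia male and from sham-operated mice. Labelled sex, surgery, culture and cell makeup thus differ together in this comparison and cannot be told apart. The calls of Mars2 and Yars2 were lost in 5 and 4 of 16 alternatives, both with upper-quartile factors, and among the 16 cytosolic calls those of Nars in 10 and Wars in 5 of 16. Hars, Nars2 and Rars2, called lower, lost theirs in 1, 3 and 2 of 16.

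Cars, the lowest of the cytosolic synthetases in naive ganglia, was at 35.1 and 35.0 CPM in contralateral ganglia and at 119.7, 133 and 129.6 CPM in neurons, a log2 fold change of 1.84 (SE 0.062, adjusted p = 1.27e-08). Vars, the valine enzyme, was at 72.6 and 75.1 CPM and at 128, 147 and 128 CPM (0.84, SE 0.069, adjusted p = 1.98e-06). Both cytosolic enzymes had every neuron library above both ganglia, while 77.3% of all genes had separate groups in either direction. Farsb went the other way, from 128 and 131 CPM to 83.4, 92.5 and 104 CPM (-0.49, adjusted p = 0.000359). Among amino acid synthesis genes, Shmt2 was at 29.9 and 29.5 CPM in ganglia and at 100.3, 121 and 105 CPM in neurons (1.85, SE 0.080, adjusted p = 3.79e-08). Phgdh, which was not called after crush, was at 60.1 and 48.8 CPM and at 80.9, 94.7 and 75.7 CPM (0.60, SE 0.111, adjusted p = 0.000738). Psph was the only amino acid synthesis gene not called here.

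Among mitochondrial synthetases, Pars2 was at 8.89 and 7.70 CPM in contralateral ganglia and at 3.33, 4.12 and 3.86 CPM in neurons (-1.15, SE 0.153, adjusted p = 6.66e-05). Fars2 was at 113 and 127 CPM and at 76.1, 63.2 and 62.1 CPM (-0.86, adjusted p = 3.51e-05). Rars2, the arginine enzyme, was at 18.2 and 18.7 CPM and at 13.3, 15.6 and 15.5 CPM (-0.34, adjusted p = 0.00857). Each of these 3 had separate groups with the neurons lower, in a comparison where 77.3% of all genes had separate groups in 1 direction or the other. Cars2 was likewise lower in neurons, at 10.7, 11.6 and 10.6 CPM against 15.8 and 17.1 CPM (-0.61, adjusted p = 0.000113), and may share reads with Naxd.

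Against naive ganglia, which stand in the other table, 38 of the 44 genes were called higher in neurons and 6 lower (41.7% and 41.6% of all genes tested), with class medians of 2.07, 0.47 and 1.60. The order of the classes was the same for cytosolic above mitochondrial synthetases, but several mitochondrial genes changed direction. Rars2, at 4.67, 4.55 and 3.88 CPM in naive controls, was higher in neurons by a log2 fold change of 1.78 (adjusted p = 9.39e-09) and Cars2 by 0.93 (adjusted p = 1.32e-06), while both were lower against sham ganglia. Cars (3.61, adjusted p = 5.95e-12), Vars (2.74), Shmt2 (2.68) and Phgdh (2.53) were higher, and Pars2 (-1.19), Fars2 (-1.31) and Farsb (-0.38) lower, against both baselines. The baselines themselves differed: contralateral sham ganglia against naive ganglia, both control, had 36 members called higher and 3 lower (32% and 32.6% of all genes tested), with medians of 1.18, 0.56 and 0.53. Summed neuron markers were at 7905 to 8253 CPM in these sham ganglia and at 5516 to 6569 CPM in naive ones, and blood markers at 429 to 635 against 249 to 374 CPM, both without overlap, and their part in the difference was not tested. Count table, depth, labelled sex, sham surgery and the stated tamoxifen differ together between these ganglia and cannot be told apart.

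**Figure D5:**
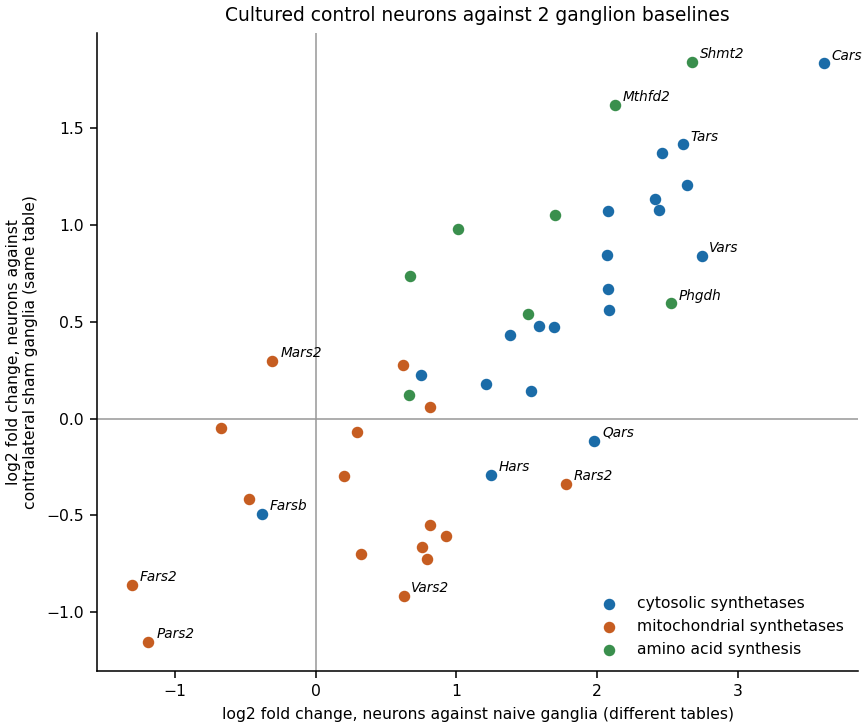
Log2 fold change of cultured control neurons (3 libraries) against naive control ganglia (3, horizontal axis) and against contralateral sham control ganglia (2, vertical axis) for each of the 44 genes, by class; both axes use the same neuron libraries. Cars lies at 3.61 and 1.84, while mitochondrial genes such as Rars2 (1.78 and -0.34) fall right of 0 on the first axis and below 0 on the second.

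Cultured neurons also differed from ganglia in the markers of other cells. In control neurons against contralateral sham control ganglia, sums were 3045 to 3513 against 7905 to 8253 CPM for 7 neuron markers, 736 to 837 against 3497 to 4560 CPM for 5 Schwann cell markers and 61.9 to 73.0 against 315 to 351 CPM for 4 satellite glia markers. Endothelial markers (3 genes) were at 791 to 1112 against 69.7 to 91.7 CPM, macrophage markers (5 genes) at 172 to 179 against 126 to 135 CPM, fibroblast markers (4 genes) at 168 to 281 against 319 to 531 CPM and blood markers (3 genes) at 3.25 to 8.12 against 429 to 635 CPM. No marker was at 0 in any library. Their part in the differences of the synthetase and amino acid synthesis genes was not tested.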

How the data were processed

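The authors deposited whole-number counts per gene in 2 tables, naive and injured ganglia in one (12 libraries) and neurons and sham ganglia in the other (14 libraries); their FPKM tables were used only to read the counted length, which matched the gene span within 0.1% for 99.28% and 99.22% of genes. Per the submitters' processing notes, reads were trimmed with Trim Galore, aligned with HISAT2 to mm10 and counted with featureCounts, with no versions; per the labels' protocols, the library kit was TruSeq Stranded mRNA. Identifiers were matched to GENCODE M21 symbols for 55141 of 55401 genes (99.53%).

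Genes were filtered with filterByExpr (minimum count 10, minimum total 15), normalized by TMM and tested with edgeR 4.0.16 in R 4.3.3 by the quasi-likelihood test with Benjamini-Hochberg adjustment over all genes. The fits held the 12 naive and injured, the 6 neuron, the 8 sham, or the libraries of the groups compared across tables; SE is the log2 fold change over the root of F. DESeq2 1.42.0, other factors, other filters, a replicate block, a sex covariate and omitted libraries were alternatives. Sham sides share mice by the labels (correlations of same-mouse deviations 0.2683 in control and -0.191 in cKO) and were fitted without and with the mouse as a block; each other library is labelled as its own mouse. The steps were tested on simulated data.

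Members, lists and tests were chosen with earlier results of these data known. Values in every library of the comparison are given for members called in both crush comparisons with a log2 fold change of at least 0.5 in control (both genotypes), those with the smallest p per class or comparison, and the largest differences in neurons; others named outside this rule were chosen after their values were seen. Calls within the list of further aminoacylation genes are not reported here.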

Additional observations from a re-analysis of the deposited data

Results flagged for a closer look

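For 6 members, every cKO sample lay above every control in one setting and below in another, in 7 of 440 pairs of settings compared (1.59%, against 2.12% over all genes tested in every fit); the differences between the settings were not tested, sham groups held 2 mice each, and 0 of these genes were called for genotype by edgeR or DESeq2. The log2 fold changes of cKO against control were 0.11 in naive and -0.16 in contralateral sham ganglia for Aars2, and 0.049 in naive and -0.021 in ipsilateral sham ganglia for Iars2. With 2 mice per group, 35.8% of all genes had no overlap in ipsilateral and 38.3% in contralateral ganglia. In neurons and ipsilateral sham ganglia the log2 fold changes were 0.055 and -0.070 for Hars2, 0.29 and -0.23 for Pars2, 0.057 and -0.088 for Psat1, and 0.21 and -0.24 for Pycr1, which was also at -0.33 in contralateral ganglia.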

How the results depend on the processing

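After crush, the count of cytosolic synthetases called higher ran from 5 to 12 in control and from 6 to 11 in cKO when libraries were left out singly, that of mitochondrial synthetases from 0 to 1 in both, and that of amino acid synthesis genes from 5 to 5 and from 2 to 5. The 1 mitochondrial call was 0 in control with DESeq2 and with library totals, 0 in both genotypes with upper-quartile factors, with no filter, with only the libraries compared and with the replicate block, and 0 in cKO without both libraries whose sex went against the label. That omission, chosen after seeing the data, left 4 cytosolic and 1 amino acid synthesis calls in cKO. Sex as a covariate, where 1 injured library carries the cKO estimate, lost most cKO calls. The cause was not tested. Replicate numbers did not pair samples of the 4 naive and injured groups (correlations of deviations between any pair of these groups from -0.522 to 0.4907) and marked the mouse only in sham ganglia; with the replicate block 12 and 5 were called in control and 10 and 5 in cKO. Genotype, interaction and sham side gave 0 calls in every alternative by edgeR or DESeq2 (0 to 0 with libraries left out). Among crush fold changes of called members, 172 values in control and 161 in cKO kept the call and 28 and 49 lost it under settings that left out no single library.

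Neurons against naive ganglia gave 37 to 38 members higher and 5 to 6 lower with libraries left out, and neurons against contralateral sham ganglia 21 to 26 and 11 to 12. With sham in place of naive ganglia the counts were 25 and 12, and the log2 fold change turned for Hars (-0.29), Qars (-0.11), Aars2 (-0.66), Cars2 (-0.61), Ears2 (-0.067), Iars2 (-0.70), Mars2 (0.30), Nars2 (-0.30), Rars2 (-0.34), Sars2 (-0.73), Tars2 (-0.55) and Vars2 (-0.91); the cause was not tested. Upper-quartile factors moved the median of all genes from -0.02 to -0.29 in neurons against naive ganglia and turned Nars2 to -0.073.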
